A study of Mus musculus with 7 samples.

Results

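The 10 genes described here are 7 cyclins (Ccna2, Ccnb1, Ccnb2, Ccnd1, Ccnd2, Ccne1 and Ccne2) and 3 cyclin-dependent kinases (Cdk1, Cdk2 and Cdk4), chosen by name and found by Ensembl identifier. The choice was made with earlier results of these data known, so their counts beside all tested genes are no test. They are 10 of the 15531 genes tested, and all 10 are on the list of tested genes. The RNA came from primary mouse embryonic fibroblasts (MEFs), the connective tissue cells that grow out of a minced embryo, taken at embryonic day 13.5 and harvested confluent at passage 4. Df/+Bl6 MEFs (4 lines) carried an engineered 4.3 Mb deletion on the chromosome 4 derived from 129S5/SvEvBrd, and an intact C57BL/6J homologue. The +129/+Bl6 MEFs (3 lines) were F1 hybrids of the same strains with both homologues intact. The fathers of the deletion embryos were chimeras made from Df/Dp embryonic stem cells, so all Df/+Bl6 lines carry 1 engineered deletion allele, and each line stands for cells of mixed type from a whole embryo body without the head. For the controls the paper names F1 +129/+Bl6 crosses. Genotype therefore cannot be told apart from cross, litter or descent from the engineered cells. The words "with the deletion" and "without it" below name the genotypes, not a cause. The values are the authors' deposited mean normalized counts of each genotype, for genes past an FDR of 0.05 only. A gene with such values is called listed here. No value per line was used, so no SD, overlap of lines or new test can be given, and the log2 ratios below are Df/+Bl6 over +129/+Bl6.

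Cyclins are regulatory subunits that switch on cyclin-dependent kinases (CDKs), and the cell cycle runs on their ordered synthesis and destruction. D-type cyclins bind Cdk4 and Cdk6 in G1 and are made in response to growth factors. Cyclin E binds Cdk2 at the entry into S phase, cyclin A binds Cdk2 and Cdk1 in S and G2 phase, and cyclin B with Cdk1 drives mitosis. In cultured fibroblasts the mRNAs of cyclins E, A and B and of Cdk1 follow the cycle and are low in resting cells, whereas those of the D-type cyclins, Cdk2 and Cdk4 vary less through it.

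Of the 10 genes, 6 were higher in Df/+Bl6 MEFs and none was lower, against 8.67% of all tested genes listed in either direction and 5.13% listed as higher. The 6 were both cyclin E genes, the S phase cyclin Ccna2, both mitotic cyclins Ccnb1 and Ccnb2, and Cdk1. A log2 ratio of at least 1 was reached by 4 of them (Ccne2, Ccna2, Ccnb1 and Cdk1), and by 1.45% of all tested genes in that direction. The median log2 ratio of the 6 was 1.06, with a range from 0.55 to 1.64, while the 796 genes listed as higher had a median of 0.80. The remaining 4, Ccnd1, Ccnd2, Cdk2 and Cdk4, were tested but not listed. Their means are not in the comparison tables, so neither their direction nor the size of any difference is known, and their absence does not show that they were alike in the genotypes. In RNA from whole cultures, a larger share of cells in a given phase and more mRNA per cell in that phase cannot be told apart.

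**Figure D1:**
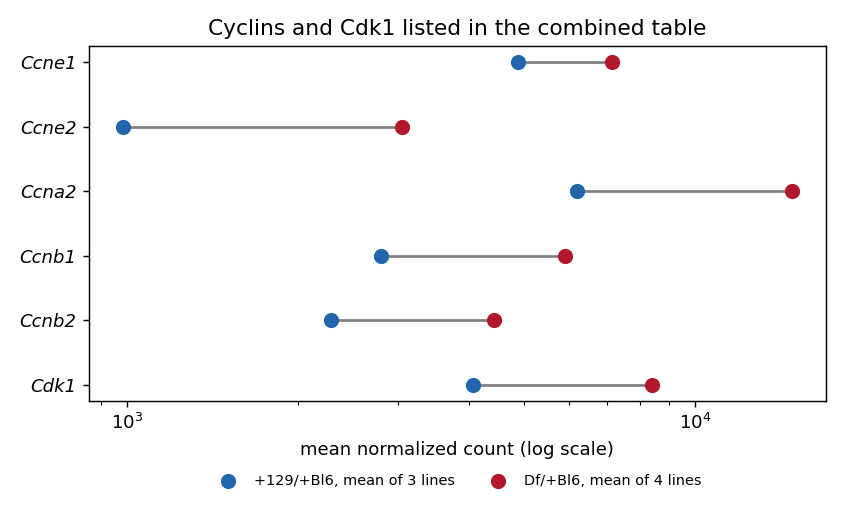
Mean normalized count on a log axis of the 6 listed genes in +129/+Bl6 (blue, mean of 3 lines) and Df/+Bl6 MEFs (red, mean of 4 lines), joined by a grey line for each gene. The red point lies to the right for all 6, and the gap is widest for Ccne2 (982.97 and 3054) and narrowest for Ccne1 (4876 and 7140), and points of different genes are not comparable since counts are not per length.

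The promoters are shown because cell cycle genes are known to carry common regulatory elements there. CCAAT boxes, bound by NF-Y, and the cell cycle genes homology region (CHR, TTTGAA) mark many G2/M genes. TTTNNCGC, with N any base, covers the E2F site found in G1/S genes, but a match need not be that site. CACGTG is the E-box bound by Myc and related factors. The RefSeq promoter table of GRCm38.p6, the build of the authors' gene set, holds 6 of the 10 genes. It has no entry for Ccna2, Ccnd1, Ccnd2 and Ccne2. Each stretch is the 250 bases before the annotated start, 5′ to 3′ on the strand of the gene, with matches to the 4 motifs on either strand in capitals. Positions below are those of the first base of a match on the printed strand. The stretches of the mitotic genes are chr13:100786487-100786736 for Ccnb1, chr9:70421555-70421804 for Ccnb2 and chr10:69352913-69353162 for Cdk1, all on the minus strand.

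Ccnb1: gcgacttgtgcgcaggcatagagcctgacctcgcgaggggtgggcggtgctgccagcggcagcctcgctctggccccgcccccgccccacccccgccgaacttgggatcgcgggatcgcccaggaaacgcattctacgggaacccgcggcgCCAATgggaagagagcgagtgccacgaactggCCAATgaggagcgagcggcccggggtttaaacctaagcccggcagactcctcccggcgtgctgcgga

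Ccnb2: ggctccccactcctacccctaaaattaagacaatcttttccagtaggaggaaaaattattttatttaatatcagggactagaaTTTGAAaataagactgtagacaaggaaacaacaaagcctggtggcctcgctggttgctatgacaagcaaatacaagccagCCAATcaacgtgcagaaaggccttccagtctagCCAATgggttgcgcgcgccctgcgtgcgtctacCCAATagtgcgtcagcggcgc

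Cdk1: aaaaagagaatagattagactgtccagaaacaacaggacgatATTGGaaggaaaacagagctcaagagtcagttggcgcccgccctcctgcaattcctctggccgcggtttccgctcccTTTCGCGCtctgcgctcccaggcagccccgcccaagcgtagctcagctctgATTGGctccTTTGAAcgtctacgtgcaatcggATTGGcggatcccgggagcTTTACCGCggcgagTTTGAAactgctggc

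All 3 mitotic promoters held repeated CCAAT boxes. Ccnb1 had 2, beginning 99 and 67 bases before the start, Ccnb2 had 3, at 87, 54 and 21, and Cdk1 had 3 on the opposite strand, at 208, 80 and 48. Over the 300 bases of each of 32851 mouse promoters, 37.4% held at least 1 CCAAT on either strand, 11.7% at least 2 and 3.37% at least 3. The CHR sequence TTTGAA occurred 2 times in Cdk1, at 71 and 15 bases before the start. In Ccnb2 it occurred at 167 bases before the start and again just after the start, past the printed stretch. Ccnb1 held 0 matches to TTTGAA, so the 3 mitotic promoters did not all hold both strings. This concerns only these letters in this window, and does not show that Ccnb1 lacks a CHR. The share of all promoters with at least 1 TTTGAA was 17.9%, and with at least 2 it was 2.31%. Cdk1 alone among the 6 promoters held 2 matches to TTTNNCGC, at 131 and 29 bases before the start, which 0.326% of all promoters do.

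For comparison, the promoters of Ccne1, listed as higher (chr7:38107491-38107740, minus strand), and of Cdk4, not listed (chr10:127063285-127063534, plus strand), held neither CCAAT nor TTTGAA.

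Ccne1: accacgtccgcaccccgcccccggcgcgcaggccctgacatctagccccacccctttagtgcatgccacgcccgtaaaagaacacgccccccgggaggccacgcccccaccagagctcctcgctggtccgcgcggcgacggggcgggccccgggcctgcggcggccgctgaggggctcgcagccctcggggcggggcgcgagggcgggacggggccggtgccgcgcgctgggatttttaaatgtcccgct

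Cdk4: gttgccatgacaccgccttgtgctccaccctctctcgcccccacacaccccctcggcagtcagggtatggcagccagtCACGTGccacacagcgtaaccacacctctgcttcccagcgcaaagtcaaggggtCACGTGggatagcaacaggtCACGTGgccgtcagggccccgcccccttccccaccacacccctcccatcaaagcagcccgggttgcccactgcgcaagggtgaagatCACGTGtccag

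Ccne1 had no match to any of the 4 motifs in these 300 bases, which concerns only these letters in this window. Cdk4 had 4 E-boxes, beginning 172, 118, 98 and 11 bases before the start, and at least 3 were found in 0.0883% of all promoters. Cdk2, also not listed, had 1 CCAAT box at 45 and 1 TTTNNCGC on the opposite strand at 140 bases before the start. These matches describe the sequence. No binding was measured in these cells.

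Among the G1/S cyclins, Ccne2 (ENSMUSG00000028212) had the largest ratio of the 10 genes. The genotype means were 3054 normalized counts with the deletion and 982.97 without it, a 3.11-fold difference (log2 ratio 1.64). By log2 ratio it ranked 23 of the 796 genes listed as higher, and 97.1% of these were below it. Ccne2 lies on chromosome 4 at 11190433 to 11204779 (GRCm38), 139.1 Mb before the near end of Rere. That gene was taken here to mark this side of the deletion, whose exact edges were not used. Its span overlaps that of 2 other genes, of which Ints8, an Integrator subunit, was also listed as higher (means 9204 and 5965, log2 ratio 0.63). Whether reads of that overlap entered either count was not tested.

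Ccne1 (ENSMUSG00000002068), the other gene for an activator of Cdk2, moved less. Df/+Bl6 MEFs had a mean of 7140 normalized counts and the controls one of 4876, a 1.46-fold difference (log2 ratio 0.55), on chromosome 7 at 38097984 to 38107490. It ranked 760 of 796, with 36 genes listed as higher below it. The log2 ratio of Ccne2 exceeded that of Ccne1 by 1.09. With no value per line this gap has no error, and whether it exceeds the spread between MEF lines is unknown.

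Ccna2 (ENSMUSG00000027715), the somatic cyclin A, which acts in S and G2 phase, had the next highest ratio after Ccne2. The mean was 14820 normalized counts with the deletion, against 6202 in +129/+Bl6 MEFs, a 2.39-fold difference (log2 ratio 1.26). It lies on chromosome 3 at 36564865 to 36573038, and its ratio ranked 106 of the 796, with 86.7% below it. The span of Ccna2 meets that of Exosc9, an RNA exosome subunit, which was not listed.

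The mitotic cyclins and their kinase had nearly equal ratios. Ccnb1 (ENSMUSG00000041431), the main activator of Cdk1 at mitotic entry, had a mean of 5903 normalized counts in Df/+Bl6 lines and of 2795 in the controls, a 2.11-fold difference (log2 ratio 1.08). It lies on chromosome 13 at 100778739 to 100786486. Ccnb2 (ENSMUSG00000032218), the Golgi-associated B-type cyclin, had means of 4421 and 2284, a 1.94-fold difference (log2 ratio 0.95), on chromosome 9 at 70407689 to 70421554. Cdk1 (ENSMUSG00000019942), the partner of both, had means of 8407 and 4059, a 2.07-fold difference (log2 ratio 1.05), on chromosome 10 at 69335146 to 69352912. The log2 ratios of Ccnb1 and Cdk1 differed by 0.03 and those of Ccnb1 and Ccnb2 by 0.13, with no error for either difference. These genes ranked 176 (Ccnb1), 266 (Ccnb2) and 192 (Cdk1) of 796. Ccnb1 also belongs to the set of chromosome condensation genes that the study picked from these MEF lines, so its direction is no independent evidence of that set. Pseudogenes named for Ccnb1 and Ccnb2 are annotated in the genome. Only read pairs with a single best location among the transcripts were counted, and whether pseudogene reads entered the counts was not tested.

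**Figure D2:**
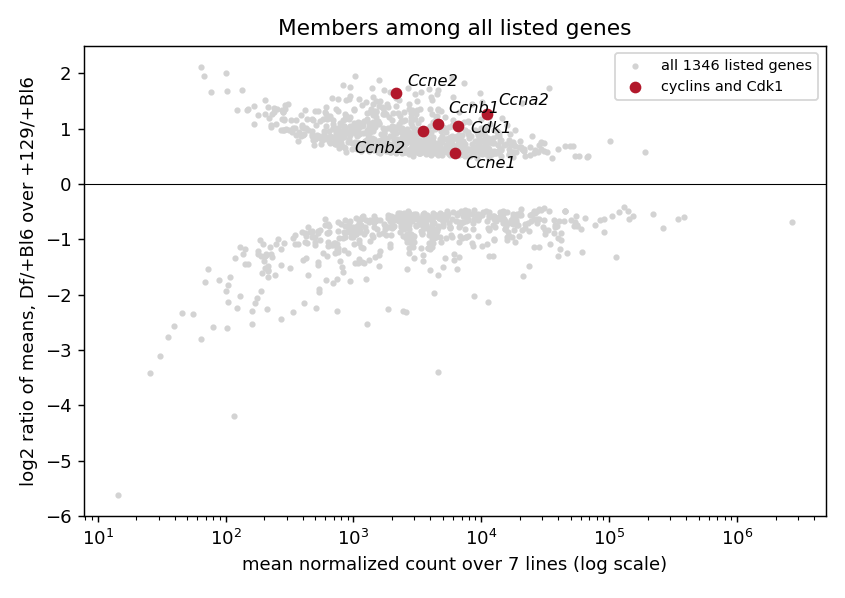
Log2 ratio of the genotype means against the mean normalized count over the 7 lines (log axis) for all 1346 listed genes (grey) and the 6 listed cyclin and Cdk1 genes (red). The 6 lie in the upper cloud between 0.55 (Ccne1) and 1.64 (Ccne2), and genes of low mean are listed at larger differences only.

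The G1 cyclins were set against those of S and M phase. Of the S and M phase cyclins, 3 of 3 (Ccna2, Ccnb1 and Ccnb2) were listed as higher, with a median log2 ratio of 1.08 and a range from 0.95 to 1.26. Of the G1 cyclins, 0 of 2 (Ccnd1 and Ccnd2) were listed, at a background of 8.67%. A further D-type cyclin, Ccnd3, was tested and not listed either, and the same holds for Cdk6, the other kinase that D-type cyclins activate. The difference of the class medians could therefore not be computed, and a listed class beside one that is not listed does not show that they differ. Ccnd1 lies on chromosome 7 at 144929931 to 144939831 and Ccnd2 on chromosome 6 at 127125162 to 127152188. When the cyclin E genes stood for G1, their median log2 ratio of 1.09 was close to that of the S and M phase cyclins (S and M phase minus cyclin E, -0.01), with Ccne2 above all 3 of these and Ccne1 below them. Among the kinases, Cdk1 was listed, and Cdk2 (chromosome 10 at 128697938 to 128705051) and Cdk4 (chromosome 10 at 127063535 to 127067288) were not.

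The wider families were counted next. Of 19 other cyclins 17 were tested, and 1 of these was listed, Ccnf, an F-box protein that recognises substrates in G2 phase, with means of 5061 with the deletion and 2436 without it (log2 ratio 1.05). The other 16, which include the transcriptional cyclins Ccnc, Ccnh, Ccnk, Ccnt1 and Ccnt2, were not listed. Ccna1 and Ccnb3, known from the germ line, were not among the tested genes. Of 16 other CDKs, among them the transcriptional kinases Cdk7, Cdk8, Cdk9, Cdk12 and Cdk13 and the neuronal kinase Cdk5, 0 were listed. Together, 6 of 24 tested cyclins (25.0%) and 1 of 19 tested CDKs (5.26%) were listed as higher and none as lower, against 5.13% of all tested genes. The share of CDKs was thus near the background.

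Both Cdk11b and Ccnl2, a kinase and a cyclin of pre-mRNA splicing known to act together, lie on chromosome 4 just beyond Ski. That gene was taken here to mark the distal side of the deletion. In GRCm38 Cdk11b begins 0.402 Mb and Ccnl2 0.588 Mb past the end of Ski. Neither was listed. None of the 45 cyclins and CDKs lies between Rere and Ski.

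**Figure D3:**
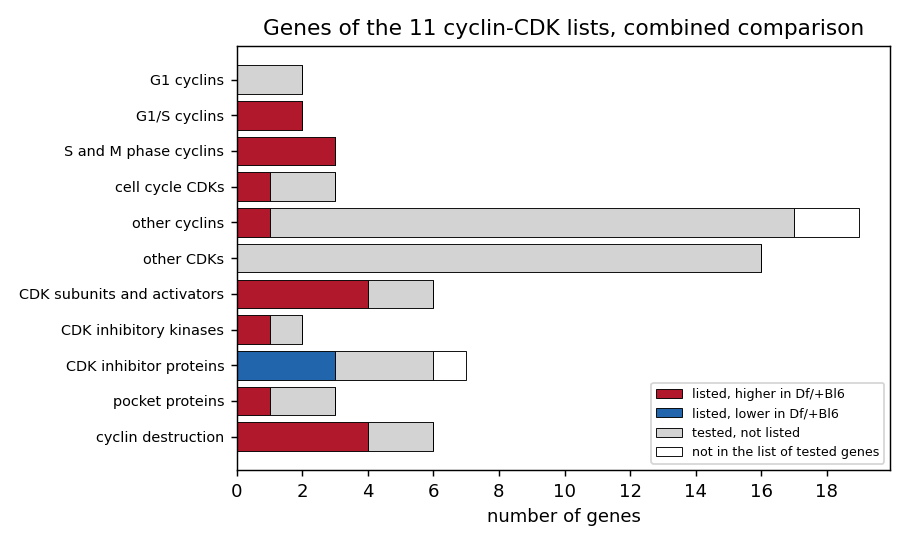
Number of genes of each of the 11 cyclin-CDK lists that were listed as higher (red) or lower (blue) in Df/+Bl6 MEFs, tested but not listed (grey) or not tested (white). The S and M phase and G1/S cyclins are all red, the G1 cyclins and the 16 other CDKs are all grey, and the only blue segment is that of the 3 CDK inhibitor proteins.

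Of the proteins that act on cyclin-CDK complexes, 23 were tested, of which 10 were listed as higher and 3 as lower, where all tested genes gave 5.13% and 3.54%. Among the subunits and activators, 4 of 6 were higher. Cks1b and Cks2, small subunits that bind the kinase, had log2 ratios of 0.62 and 1.00, and Cdc25a and Cdc25c, phosphatases that remove the inhibitory phosphates of CDKs, had 0.64 and 1.23. Of the kinases that add these phosphates, Pkmyt1 was higher (log2 ratio 0.74) and Wee1 was not listed. Among the genes of cyclin destruction 4 of 6 were higher: Fbxo5 (log2 ratio 1.66), which holds the anaphase-promoting complex in check, Skp2 (0.99), which targets the CDK inhibitor p27, the mitotic activator Cdc20 (0.60) and the ubiquitin-conjugating enzyme Ube2c (0.86). Activators and antagonists of the kinases were thus among the genes listed as higher. Of the pocket proteins, which CDKs phosphorylate, Rbl1 was higher (log2 ratio 0.91) and Rb1 and Rbl2 were not listed.

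The CDK inhibitor proteins ran the other way, with 3 of 6 tested genes lower, against 3.54% of all tested genes, and none higher. Cdkn2b (p15), an inhibitor of Cdk4 and Cdk6, had means of 9814 with the deletion and 16891 without it (log2 ratio -0.78), Cdkn2a had 5583 and 9049 (-0.70), and Cdkn1a (p21) had 10462 and 16690 (-0.67). Cdkn2a gives rise to p16 and p19Arf, which the gene count does not separate. Cdkn2a and Cdkn2b are neighbours on chromosome 4, both 61.0 Mb before the near end of Rere. Of the proliferation markers 3 of 3 were higher, beside 5.13% of all tested genes, with log2 ratios of 1.72 for Mki67, 1.47 for Top2a and 0.67 for Pcna.

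**Figure D4:**
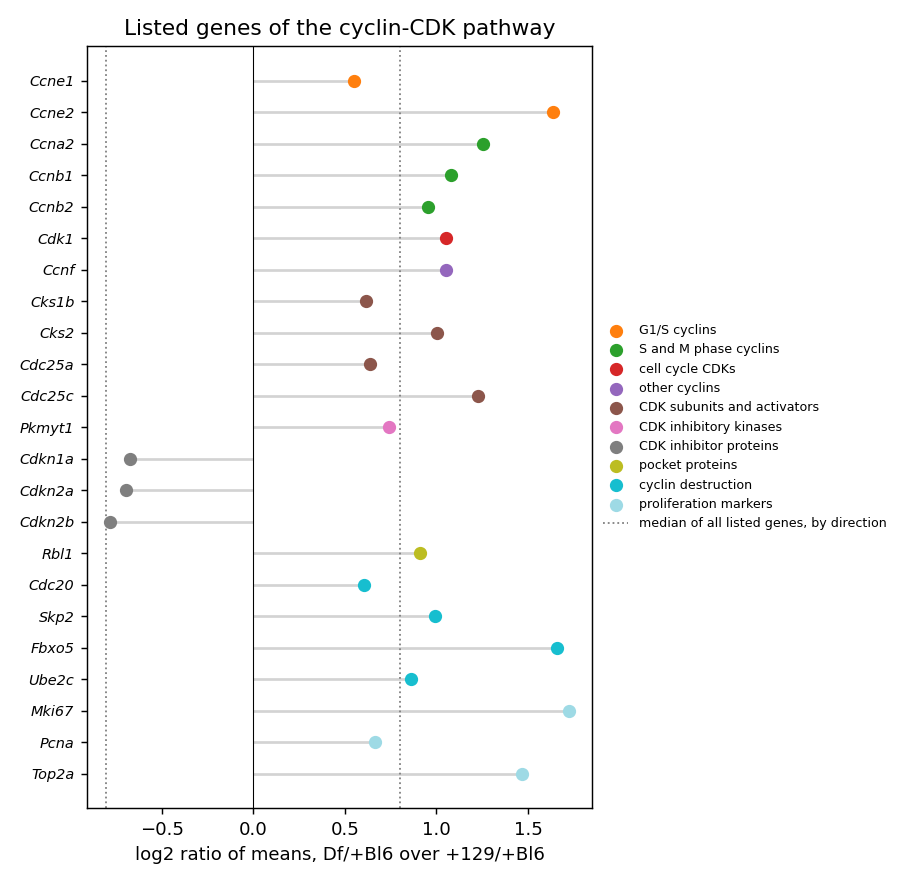
Log2 ratio of the genotype means, Df/+Bl6 over +129/+Bl6, for each listed gene of the cyclin-CDK lists, coloured by list, with dotted lines at the median of all genes listed as higher (0.80) and as lower (-0.81). The 3 CDK inhibitor genes lie to the left of 0 and the other 20 genes to the right, from Ccne1 (0.55) to Mki67 (1.72).

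Genes of other cell types were examined, because MEF cultures are mixed. All 10 fibroblast markers were tested, and 1 was listed, Fn1 (fibronectin), lower in Df/+Bl6 MEFs (log2 ratio -0.69), a share near the 8.67% of all tested genes. The Schwann or neural crest markers S100b, Foxd3 and Sox10 were listed as lower, and no count over their list is given. S100b had means of 123.4 with the deletion and 614.7 without it (log2 ratio -2.32), Foxd3 had 40.3 and 117.6 (-1.54) and Sox10 had 113.2 and 326.3 (-1.53). Their part in the cyclin differences was not tested. None of the 6 macrophage, 5 endothelial, 3 epithelial and 5 skeletal muscle markers tested was listed, beside the same 8.67%.

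Strain differences in the reads separated the alleles for part of the counts. Ccna2 and Ccne1 were listed for both alleles, and the other 8 genes for neither. Of the genes tested in the combined comparison, 0.856% were listed as higher for the 129S5 allele. For C57BL/6J the share was 1.16%. Which genes were tested for each allele is not known. For Ccna2, the 129S5 allele had means of 1966 with the deletion and 689 without it (log2 ratio 1.51) and the C57BL/6J allele 3411 and 1327 (1.36), beside 1.26 for all counts. For Ccne1, the 129S5 allele had 1021 and 619 (0.72) and the C57BL/6J allele 1807 and 1170 (0.63), beside 0.55 for all counts. Both alleles of both genes were thus higher with the deletion, and the ratios of the alleles differed by 0.15 for Ccna2 and 0.10 for Ccne1, with no error for either. The reads of an allele also enter the combined counts, so the 3 comparisons are not independent, and each table was normalized separately, so levels cannot be set against each other.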

How the data were processed

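The authors aligned paired reads of stranded polyA+ libraries from 7 MEF lines with GSNAP, allowing no mismatches, to C57BL/6J transcripts (GRCm38) and to a 129S5/SvEvBrd version of them. They kept pairs with one best location on 1 gene, represented by its longest transcript. Genes with fewer than 10 reads per allele were dropped where this held across genotypes. The values taken from the deposited tables are signal values, namely read-pair counts that the authors divided by DESeq size factors and then averaged within each genotype. The 3 tables (all counts, 129S5 allele, C57BL/6J allele) hold only genes past an FDR of 0.05, and were normalized separately. In all 3 the overall mean equals the genotype means weighted 4 to 3. Their columns of fold changes, p-values and adjusted p-values were not used. A further deposited file has 9 unnamed value columns for 7 lines. These were left out, and its identifiers served as the list of tested genes. The depth of each line is therefore unknown.

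Log2 ratios were computed from the means without a pseudocount. No test was run, and "listed" rests on the call made by the authors. The text names all 10 members and each listed gene of the pathway lists. Members and lists were chosen with earlier results of these data known. A part of the Schwann or neural crest list is not reported here. All 106 genes of the lists matched an identifier, Adgre1 by its older symbol. Positions and promoters come from RefSeq tables of GRCm38.p6, matched by symbol. The code for the ratios and for the motif search was run on simulated data with known answers and no noise, which checks the code only. Alternatives were a pseudocount of 1, centring, a minimum mean of 100, a log2 ratio of at least 1, other classes of cyclins and the allelic counts. Python 3.11.15, numpy 2.4.6, pandas 2.3.3 and matplotlib 3.10.9 were used.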

Additional observations from a re-analysis of the deposited data

How the results depend on the processing

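The count of 6 members listed as higher was also 6 at a mean of at least 100 and was 4 at a log2 ratio of at least 1, which left out Ccnb2 and Ccne1. In the 129S5 table it was 2, and in the C57BL/6J table also 2. Only part of the reads entered the allelic counts, and whether this lowered the number of listed members was not tested. Listed S and M phase cyclins exceeded listed G1 cyclins by 3, by 1 with cyclin E counted as G1, by 5 with cyclin E counted with S and M phase, and by 4 with Ccnd3 and Ccnf added. This count replaced the planned difference of medians after the data were seen, since no D-type cyclin has a value. The classes differ in size, and 8.67% of all tested genes were listed. Each of these differences follows from which genes were listed, so it does not test a contrast of the classes. The median log2 ratio of the S and M phase cyclins, 1.08, was 1.10 as a mean, 1.07 with Ccnf, 0.47 when centred on the median of all 1346 listed genes (0.61) and 0.47 when centred on the 1216 off chromosome 4. These 5 settings of the median were chosen after the data were seen. The same centrings turned the log2 ratio of Ccne1 to -0.057 and -0.062, but left those of the other 5 listed members above 0. That centre is the median of genes selected for a difference, more of them higher than lower, so it is not a scaling of the libraries. A pseudocount of 1 moved no log2 ratio of a member by more than 0.01. Leaving out a MEF line was not possible, because no value per line was used. No paired analysis was possible because the line numbers are not shared between the genotypes and the tables hold means only.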
